A study of Mus musculus with 3 samples.

Results

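Rod photoreceptors were taken as the cells that the authors' deposited cell table places in cluster 1, in all 3 libraries of a single-cell RNA sequencing experiment on mouse retina. They were 2482 of 15242 cells, with 1180 of 4478 cells in WT, 556 of 5952 in rd10-vehicle and 746 of 4812 in rd10-TMB. All mice were of the C57BL/6J strain, 8 weeks old and kept in darkness from birth, so every group shared dark rearing. WT mice carried the wildtype genotype and ate the base chow. The rd10-vehicle mice were female, carried the rd10 mutation and ate the same chow, and the rd10-TMB mice were female rd10 mice whose chow held tamsulosin, metoprolol and bromocriptine (TMB). Tamsulosin blocks alpha-1 adrenergic receptors, metoprolol blocks beta-1 adrenergic receptors and bromocriptine activates D2-like dopamine receptors. Each group was 1 library of pooled, papain-dissociated retinas. The labels give 1 retina from each of 4 mice per pool, while the methods of the study give 3 mice for each rd10 group, and they give 2 female and 2 male mice for WT, so sex differs in part with the WT comparisons. With 1 library per group no test between groups was possible, and every 95% interval below covers counting error within these libraries only.

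Rods detect dim light. Light leads to activation of the G protein transducin, transducin activates the phosphodiesterase PDE6, PDE6 breaks down cyclic GMP, and the cyclic GMP-gated channel in the outer segment membrane then closes. In rd10 mice a point mutation lies in Pde6b, the gene of the beta subunit of rod PDE6, and rods die before cones. The rods that could be sampled at 8 weeks were therefore those that still remained, and the fraction of rods lost before that age was not measured here.

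Rods were shallow cells. Wherever 3 values of a measure stand in a row below, they are in the order WT, rd10-vehicle, rd10-TMB. The median unique molecular identifier (UMI) count was 1423, 1406 and 1536 per rod, against 5333, 4857 and 5548.5 per cone. The median number of detected genes per rod was 840, 790 and 864, and the median mitochondrial share of UMIs was 4.43%, 4.89% and 4.71%. Summed over all rods there were 1798095, 860691 and 1263763 UMIs, which were 9.52%, 2.33% and 4.33% of the UMIs of each library. Levels below are CPM, the UMIs of a gene per 1000000 rod UMIs of the library, so 1 UMI was worth 0.556, 1.16 and 0.791 CPM. Across the whole matrix, 8 cell barcodes were shared by WT and rd10-vehicle, 10 by WT and rd10-TMB and 7 by rd10-vehicle and rd10-TMB. Of rods, 1 barcode was shared, by rd10-vehicle and rd10-TMB.

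The marker levels bore out the rod label. Nrl and Nr2e3 encode the transcription factors that set rod identity, Gnat1 encodes the alpha subunit of rod transducin and Cnga1 a subunit of the rod cyclic GMP-gated channel. Nrl was at 1464, 1236 and 1389 CPM. Nr2e3 was at 1139.5, 1205 and 1059 CPM. Gnat1 was at 4375, 4521 and 4328 CPM, and Cnga1 at 2178, 1916 and 2033. The 4 markers summed to 9157, 8878 and 8809 CPM in rods, but to 179, 116 and 143 CPM in cones and 169, 82.6 and 147 CPM in rod bipolar cells (cluster 2). At least 2 of the 4 markers were seen in 96.2%, 97.5% and 98% of rods. The markers of the other classes were not absent. The summed level of the 11 Müller glia markers in rods was 273, 765 and 628 CPM, higher in both rd10 libraries than in WT, with none of the 11 at 0. Of the cone markers, the opsin gene Opn1sw was at 57.3, 65.1 and 44.3 CPM in rods and the arrestin gene Arr3 at 64, 79 and 58.6, with rd10-vehicle over WT intervals that included 0. Pde6h, the inhibitory subunit of cone PDE6, was at 72.3, 107 and 91.8 CPM, with a log2 ratio of 0.57 (95% interval 0.16 to 0.96) in rd10-vehicle over WT, and Gnb3 is given with the ranked genes. The 7 lens markers summed to 2.22, 95.3 and 117 CPM, with 4 of them at 0 in WT, and the 4 haemoglobin markers to 3.34, 1.16 and 182 CPM. For the Müller glia markers, results were also computed in the 871, 213 and 306 rods that held no such UMI, and the part of the other marker lists was not tested.

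Ratios between libraries are given as log2 of the CPM ratio with 1 UMI added to each library, and genes with at least 50 UMIs over the pair were compared. A gene was called higher or lower when the ratio passed 1.5-fold. In rd10-vehicle over WT, 382 genes were higher (5.77%) and 561 lower (8.47%) of 6623. In rd10-TMB over WT, 316 were higher (4.5%) and 509 lower (7.25%) of 7025, and in rd10-TMB over rd10-vehicle 165 were higher (2.89%) and 230 lower (4.03%) of 5709. The median log2 ratio of all these genes was -0.053, -0.053 and 0.015. The higher share of the called genes depended on the scaling, as median-of-ratios size factors raised it from 40.5% to 54.5% in rd10-vehicle over WT and from 38.3% to 50.9% in rd10-TMB over WT. The first and the third comparison share the rd10-vehicle library, and the first and the second share WT, so their values are set side by side and not correlated.

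The light response machinery stayed close to its WT level in the remaining rods. None of the 9 genes of the activation cascade passed 1.5-fold in any of the 3 comparisons, and their median log2 ratio was -0.18 in rd10-vehicle over WT, -0.10 in rd10-TMB over WT and 0.11 in rd10-TMB over rd10-vehicle. Pde6b, the mutated gene, was at 1746, 1477 and 1585 CPM. Its log2 ratio was -0.24 (95% interval -0.34 to -0.15) in rd10-vehicle over WT and 0.10 (95% interval 0.00 to 0.20) in rd10-TMB over rd10-vehicle. Tag counts do not read the mutated base, so these levels do not test the genotype. Gngt1, the gamma subunit of rod transducin, was the activation gene with the highest rd10-TMB ratio, at 7308, 8021 and 10114 CPM and a log2 ratio of 0.33 (95% interval 0.29 to 0.38) over rd10-vehicle. The beta subunit gene Gnb1 was at 3795, 3046 and 3288 CPM, the PDE6 subunit genes Pde6a at 1948, 1885 and 2066 and Pde6g at 5059.8, 4984 and 5377, and the channel subunit gene Cngb1 at 1039, 807 and 948.

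Among the 12 genes that end the response or feed calcium back on it, 1 was lower in rd10-vehicle over WT, which is no more than the 8.47% of all genes, and none passed the limit in the other comparisons. It was Rgs9bp, which anchors the RGS9 complex that speeds transducin shut-off. Rgs9bp was at 506, 319.5 and 408 CPM, with a log2 ratio of -0.66 (95% interval -0.86 to -0.47) in rd10-vehicle over WT and 0.35 (95% interval 0.14 to 0.57) in rd10-TMB over rd10-vehicle. Sag, which encodes rod arrestin, was at 7903, 9047 and 9093 CPM. Recoverin (Rcvrn) was at 3441, 4113 and 4036 CPM and phosducin (Pdc) at 9104, 10116 and 10496. These 3 abundant transcripts were higher in both rd10 libraries than in WT, though by less than 1.5-fold.

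**Figure D1:**
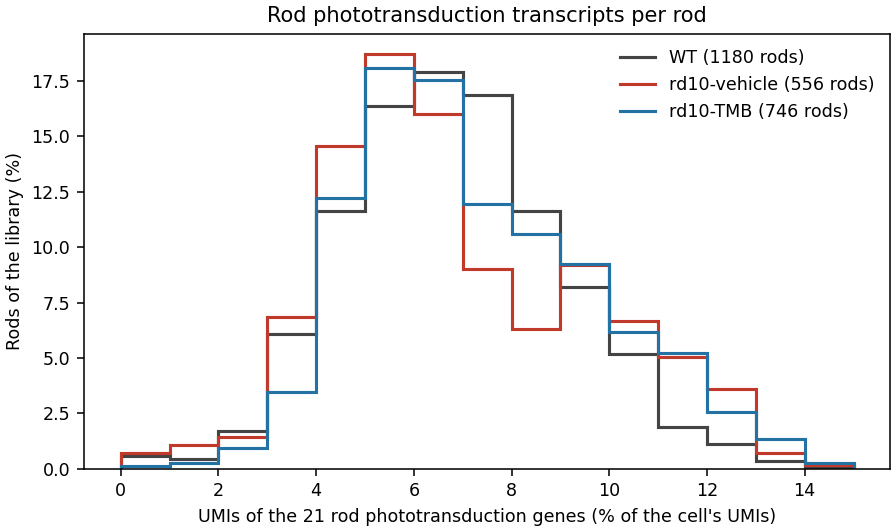
Share of each rod's UMIs from the 21 activation and recovery genes (x axis, percent) against the percent of rods in each library (y axis), for WT, rd10-vehicle and rd10-TMB. The medians were 6.75%, 6.4% and 6.84%, the rd10 distributions reached further to the right (95th percentiles of 11.8% in both, against 10.7% in WT), and 1 WT rod at 15.0% lies beyond the axis.

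Single rods were spread more widely in the rd10 libraries for the measures below, a spread that includes sampling noise. The distribution of the summed activation and recovery genes had nearly the same centre in all 3 libraries, and its upper tail was longer in rd10. The nuclear RNA Malat1 was also spread more in rd10, with lower quartiles of 5.77%, 3.61% and 3.31% of a rod's UMIs around medians of 8.12%, 7.83% and 6.78%.

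Of the 12 photoreceptor transcription factor genes, 2 were lower in rd10-vehicle over WT, against 8.47% of genes, and 1 of 11 (Crx) was lower, against 5.2%, when 50 UMIs were required with both libraries set to the lower level. Crx, the homeobox factor that drives photoreceptor genes, lies at chr7:15865947-15879955 of mm10 and was at 509, 333 and 405 CPM. Its log2 ratio was -0.61 (95% interval -0.81 to -0.42) in rd10-vehicle over WT and 0.28 (95% interval 0.07 to 0.49) in rd10-TMB over rd10-vehicle, and in cones Crx was at 642, 429 and 499 CPM. Over WT it was past the limit under 9 of 12 alternative settings. Prdm1, which holds back bipolar fate, was at 44, 12 and 21 UMIs and reached the count minimum through WT only. In rods with at least 1000 detected genes its rd10-vehicle over WT log2 ratio was 0.077, against -0.73 over all rods. None was past the limit in rd10-TMB over WT. Neurod1, a photoreceptor survival factor, was at 1266, 1584 and 1323 CPM, and Rorb, a nuclear receptor upstream of Nrl, at 606, 454 and 612. Neurod1 was highest in rd10-vehicle and Rorb lowest there, and both were nearer to WT in rd10-TMB.

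Outer segment and cilium genes were measured for 23 of 25 members, and none passed the limit in rd10-vehicle over WT or in rd10-TMB over rd10-vehicle. Prph2 and Rom1 encode the disc rim proteins. Prph2 was at 4031, 3547 and 4021 CPM and Rom1 at 4707, 4396 and 4840.3. The axonemal gene Rp1 was at 4153, 3069.6 and 3105 CPM, and the connecting cilium gene Rpgrip1 at 1936, 1391 and 1515. Both were lower in the rd10 libraries by less than 1.5-fold, and Rpgr, which encodes the partner of the Rpgrip1 product, was the single member past the limit in rd10-TMB over WT, at 143, 117 and 90.2 CPM, which as 1 of 23 is below the 7.25% of all genes.

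Synapse genes were measured for 20 of 21 members in rd10-vehicle over WT, and 3 were lower. Cacna1f, the pore of the ribbon synapse calcium channel, was at 137, 86 and 120.3 CPM. Its log2 ratio was -0.66 (95% interval -1.07 to -0.29) over WT and 0.47 (95% interval 0.074 to 0.91) in rd10-TMB over rd10-vehicle. Slc1a7, a presynaptic glutamate transporter, was at 56.2, 36 and 38.8 CPM, and its rd10-vehicle over WT ratio was past the limit under only 5 of 12 alternative settings. Cplx3, a complexin of ribbon synapses, was at 90.1, 56.9 and 59.3 CPM. Both of these were also low in rd10-TMB, while Cacna1f was nearer to WT. In rods with no glia marker UMI the rd10-TMB over WT log2 ratio of Cplx3 was 0.067, against -0.59 over all rods. The 3 of 20 stand against 8.47% of all genes and say nothing particular of the list, and no synapse gene passed the limit in rd10-TMB over rd10-vehicle.

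Of 11 measured channel and pump genes, Kcnv2 was the 1 called, lower in rd10-vehicle over WT (against 8.47% of genes) and higher in rd10-TMB over rd10-vehicle (against 2.89%). Both calls rest on the same rd10-vehicle library. Kcnv2 encodes a modulatory potassium channel subunit of photoreceptors that shapes the rod's light response, and lies at chr19:27322061-27337179. Its level was 237 (215 to 261) CPM in WT rods, 144 (119.8 to 172) CPM under vehicle and 228 (202 to 256) CPM under TMB. The log2 ratio was -0.71 (95% interval -1.02 to -0.43) in rd10-vehicle over WT, -0.054 (95% interval -0.28 to 0.16) in rd10-TMB over WT and 0.65 (95% interval 0.35 to 0.98) in rd10-TMB over rd10-vehicle. The rd10-TMB over WT interval included 0, and rd10-vehicle lay below both of the other libraries. In cones Kcnv2 was at 89.1, 89.7 and 90.2 CPM, with no such dip. The other 10 measured of 12 channel and pump genes stayed within 1.5-fold in all 3 comparisons. No gene of glucose and lactate metabolism passed the limit in any comparison, of 21 measured of 22. Creatine kinase Ckb, which buffers ATP, had the largest ratio in rd10-vehicle over WT among them, at 1143, 1603 and 1507 CPM. None of the 13 genes encoded in mitochondrial DNA passed it, with median log2 ratios of 0.24, 0.14 and -0.07.

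**Figure D2:**
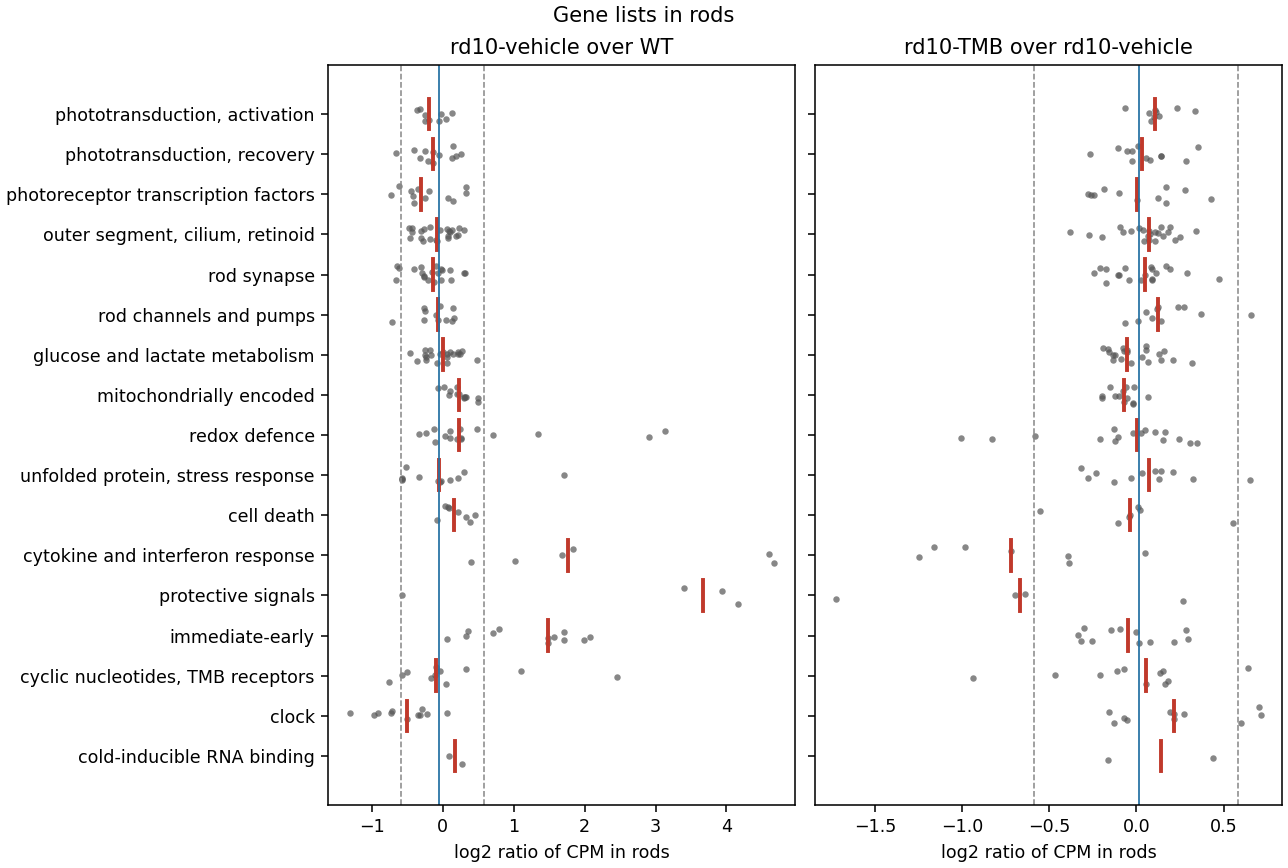
Log2 ratio of CPM in rods (x axis) of each measured gene (points) by gene list (rows), one panel per comparison with its own x scale, with list medians (red bars), 1.5-fold limits (dashed) and the median of all genes compared (blue). Phototransduction, outer segment and synapse genes lie near 0, while points of the cytokine, protective signal, redox and immediate-early lists reach above the limit over WT, and some of the cytokine, protective and redox points lie below it in rd10-TMB over rd10-vehicle.

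Several cytokine response genes were higher in rd10 rods than in WT rods, and lower under TMB than under vehicle. Cebpd, a transcription factor gene switched on by cytokines and stress, lies at chr16:15887286-15889545 and stood at 16.7 (11.3 to 23.8) CPM in WT rods, 416 (374 to 461) CPM under vehicle and 175 (153 to 199.5) CPM under TMB. These rest on 30, 358 and 221 UMIs. The log2 ratio was 4.60 (95% interval 4.10 to 5.23) in rd10-vehicle over WT, 3.35 (95% interval 2.84 to 3.99) in rd10-TMB over WT and -1.25 (95% interval -1.50 to -1.0) in rd10-TMB over rd10-vehicle. Cebpd was thus the gene with the highest ratio in both rd10 libraries and the lowest in rd10-TMB over rd10-vehicle among those with at least 200 UMIs. The glia marker sum was higher in the same 2 rd10 libraries, and in rods with no glia marker UMI the Cebpd log2 ratio was 4.75 in rd10-vehicle over WT. Stat3, the factor that gp130 cytokines activate, was at 26.1, 84.8 and 51.4 CPM, with log2 ratios of 1.69 (95% interval 1.15 to 2.26) over WT and -0.72 (95% interval -1.23 to -0.22) in rd10-TMB over rd10-vehicle. Nfkbia, an inhibitor of NF-kappaB that NF-kappaB itself induces, was at 57.8, 117 and 89.4 CPM, with 1.02 (0.61 to 1.43) and -0.39 (-0.79 to 0.0095) for the same ratios. Socs3, the feedback inhibitor of STAT3 signalling, was at 3, 38 and 28 UMIs or 1.67, 44.2 and 22.2 CPM, and Bst2, an interferon-induced antiviral membrane protein, at 4, 60 and 39 UMIs or 2.22, 69.7 and 30.9 CPM. Both had WT counts near the limit of 3 counts, so their WT levels carry little weight. Their rd10-TMB over rd10-vehicle log2 ratios were -0.98 (95% interval -1.75 to -0.25) and -1.16 (95% interval -1.80 to -0.57). In that comparison Socs3 reached the count minimum through rd10-vehicle only, which fixes its direction.

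Many of these genes reached 50 UMIs only through the rd10 libraries, which fixes their direction. When a gene was kept only where it would have had at least 50 UMIs at its lower level in both libraries, 2 of the 3 measured of 23 cytokine genes were higher in rd10-vehicle over WT, against 4.78% of 5937 genes (Stat3 and Nfkbia). In rd10-TMB over rd10-vehicle, 3 of 6 were lower (Stat3, Bst2 and Cebpd), against 2.78% of 5289 genes.

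Among the photoreceptor-derived protective signals, Edn2, Fgf2 and Gadd45b were higher in rd10 rods than in WT rods, and lower under TMB than under vehicle. Edn2 encodes endothelin-2, a peptide that injured photoreceptors release to signal to Müller glia, Fgf2 a basic fibroblast growth factor with a protective role in photoreceptors, and Gadd45b an intracellular stress response protein. Edn2 lies at chr4:120161206-120167360 and was at 14, 109 and 48 UMIs, or 7.79 (4.26 to 13.1) CPM in WT rods, 127 (104 to 153) CPM under vehicle and 38 (28 to 50.4) CPM under TMB. Its log2 ratio was 3.94 (95% interval 3.22 to 4.94) in rd10-vehicle over WT and -1.72 (95% interval -2.26 to -1.23) in rd10-TMB over rd10-vehicle. Fgf2 was at 15, 164 and 105 CPM, with 3.41 (2.85 to 4.10) and -0.64 (-0.99 to -0.29). Gadd45b was at 7.79, 148 and 91 CPM, with 4.16 (3.44 to 5.16) and -0.70 (-1.07 to -0.32). All 3 were above WT in both rd10 libraries, and lower under TMB than under vehicle by at least 1.5-fold. They reached the WT comparison through rd10, and in rd10-TMB over rd10-vehicle they were 3 of the 4 measured of 10 genes on this list at the stricter rule, against 2.78% of 5289 genes. The remaining gene, the insulin-like growth factor receptor gene Igf1r, was lower in rd10-vehicle, at 168, 113 and 136 CPM, within 1.5-fold. Lif, Bdnf, Cntf, Fgfr1 and Ednrb had fewer than 20 UMIs in each rod library. Fgf2 and Gadd45b also rose outside rods. With cells thinned to equal depth, Fgf2 was seen in 1.57%, 13.9% and 8.86% of rods and 0.249%, 5.95% and 3.31% of rod bipolar cells. Gadd45b was seen in 0.419%, 10.9% and 7.66% of rods and 2.28%, 10.4% and 9.03% of Müller glia. Fgf2 shares moved less in cones (1.47%, 2.82% and 1.51%) and Müller glia (4.93%, 6.22% and 5.5%). Gadd45b shares moved less in cones (0.733%, 1.88% and 1.76%) and rod bipolar cells (4.74%, 4.7% and 4.26%).

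**Figure D3:**
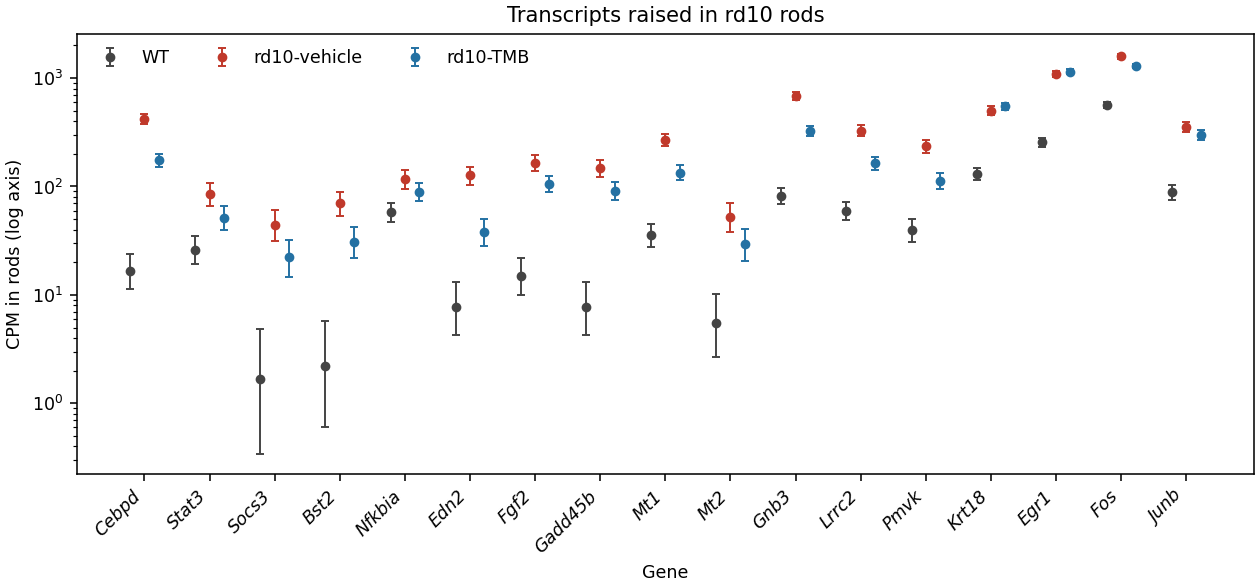
CPM in rods on a log axis (y) for 17 genes higher in rd10 rods (x), chosen with their values known, in WT, rd10-vehicle and rd10-TMB, with exact 95% counting intervals as bars. Every rd10 point lies above the WT point, and the rd10-TMB point lies below the rd10-vehicle point for all but Egr1 and Krt18.

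The sequence before the start of the gene is shown for the rod marker Cnga1 and for Bst2 and Edn2 among the raised genes, since CRX and NRL act on rod genes and STAT factors on cytokine response genes. Of 16 genes looked up in RefSeq (build GRCm38.p6, a patch release of mm10), 11 had a promoter window, and the 250 bases before the start were used. Windows at an inner start, inside the span of the gene, are not described. Capitals mark a match, on either strand, to TAATCC for CRX, TGCTGA for an NRL half-site, TTCNNNGAA for STAT factors or TGANTCA for the AP-1 site. These letters occur in 6.25%, 16.1%, 7.02% and 6.75% of 32851 windows of the same length. The windows are Cnga1 at chr5:72642753-72643002 on the minus strand, Bst2 at chr8:71537473-71537722 on the minus strand and Edn2 at chr4:120160956-120161205 on the plus strand, each 5′ to 3′ along the gene.
Cnga1: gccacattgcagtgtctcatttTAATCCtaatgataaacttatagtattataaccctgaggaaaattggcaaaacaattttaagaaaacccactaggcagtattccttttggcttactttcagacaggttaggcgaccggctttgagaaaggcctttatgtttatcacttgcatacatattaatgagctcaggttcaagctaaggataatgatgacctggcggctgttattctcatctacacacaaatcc
Bst2: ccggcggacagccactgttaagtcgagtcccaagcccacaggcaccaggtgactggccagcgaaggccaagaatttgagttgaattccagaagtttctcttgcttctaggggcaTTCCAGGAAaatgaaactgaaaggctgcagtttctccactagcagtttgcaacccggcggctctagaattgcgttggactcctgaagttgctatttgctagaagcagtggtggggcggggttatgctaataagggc
Edn2: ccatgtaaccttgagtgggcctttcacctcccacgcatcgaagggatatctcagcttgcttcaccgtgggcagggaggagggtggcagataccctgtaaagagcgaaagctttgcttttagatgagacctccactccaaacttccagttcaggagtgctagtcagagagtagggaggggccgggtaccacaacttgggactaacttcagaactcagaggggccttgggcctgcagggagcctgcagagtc
The Cnga1 window holds 1 CRX match 228 bases before the start. The Bst2 window holds a STAT match 136 bases before the start. The Edn2 window, like that of Gadd45b, holds none of the 4. A match describes letters and not binding.

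Immediate-early genes were higher in both rd10 libraries, with no difference between them past the limit. Of 16 genes, 11 were measured at the lower level, and 8 of these were higher in rd10-vehicle over WT and 9 in rd10-TMB over WT, against 4.78% and 3.53% of all genes. None of 12 passed the limit in rd10-TMB over rd10-vehicle. Egr1 encodes a zinc finger factor induced by activity and stress and was at 256 (234 to 281) CPM in WT rods, 1083 (1014 to 1155) CPM under vehicle and 1146 (1088 to 1206) CPM under TMB. Its log2 ratio was 2.08 (95% interval 1.92 to 2.24) over WT and 0.081 (95% interval -0.038 to 0.20) in rd10-TMB over rd10-vehicle, so the interval between the rd10 libraries included 0. Fos was at 569, 1598 and 1297 CPM, and Junb, its AP-1 partner, at 89, 354 and 297. At least 2 of the 16 genes had a UMI in 37.6% of WT rods (95% interval 34.5 to 40.8%), 68.2% of rd10-vehicle rods (63.9 to 72.3%) and 70.4% of rd10-TMB rods (66.8 to 73.9%), when each rod was thinned to 1000 UMIs. In cones, Egr1 was at 978, 1939.5 and 1441 CPM.

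Metallothionein and peroxiredoxin genes led the redox list. Mt1, which binds zinc and scavenges radicals, was at 35.6 (27.4 to 45.5) CPM in WT rods, 271 (237 to 308) CPM under vehicle and 135 (115 to 156) CPM under TMB, with log2 ratios of 2.91 (95% interval 2.52 to 3.35) over WT and -1.01 (95% interval -1.30 to -0.72) in rd10-TMB over rd10-vehicle. Mt2 was at 5.56, 52.3 and 29.3 CPM. Prdx6, a peroxiredoxin that repairs oxidised lipids, was at 25, 63.9 and 42.7 CPM, and Prdx2 at 182, 297 and 294. Mt1, Prdx6 and Prdx2 were the 3 of 15 genes higher in rd10-vehicle over WT at the stricter rule, against 4.78% of genes. In rd10-TMB over WT, 4 of 15 were higher, against 3.53%, as these were joined by the mitochondrial peroxiredoxin gene Prdx3, at 21.7, 25.6 and 33.2 CPM. In rd10-TMB over rd10-vehicle 2 of 16 were lower, Mt1 and Mt2, against 2.78%. Müller glia held more Mt1, at 2102, 6966 and 5594 CPM, and the glia marker sum in rods was also higher in rd10. In rods with no glia marker UMI, the Mt1 log2 ratio was 2.61 in rd10-vehicle over WT and -1.20 in rd10-TMB over rd10-vehicle.

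Of 19 genes of the unfolded protein and integrated stress responses, 11 were measured at the stricter rule and none of these was past the limit in rd10-vehicle over WT. In rd10-TMB over WT, 2 of 11 were lower, against 4.91% of genes. They were Herpud1, a membrane protein gene of endoplasmic reticulum protein disposal, at 47.8, 31.4 and 26.9 CPM and a log2 ratio of -0.80 (95% interval -1.45 to -0.24), and Cebpg, a leucine zipper factor gene, at 42.8, 27.9 and 27.7 CPM and -0.61 (95% interval -1.25 to -0.035). In rd10-TMB over rd10-vehicle, 1 of 11 was higher, the protein disulfide isomerase gene Pdia4, at 47.8, 32.5 and 52.2 CPM and 0.65 (95% interval 0.025 to 1.38), against 1.64%. Atf4, the integrated stress response factor, was at 428, 408 and 418 CPM, its pro-death target Ddit3 at 109.6, 106 and 117 and the chaperone Hspa5 at 169.6, 209 and 229. Atf3, a member of this list and of the immediate-early list, passed the minimum through the rd10 libraries only, at 24, 38 and 45 UMIs. Of 24 cell death genes, 8 were measured and none was past the limit in rd10-vehicle over WT, while Bcl2, which blocks mitochondrial death, was the 1 of 8 past it in rd10-TMB over WT, against 3.53% of genes, at a log2 ratio of 0.63 (95% interval 0.17 to 1.10). That call held under 8 of 12 alternative settings.

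Of the receptors that TMB acts on, Drd4 was the exception in rods, as the others were sparse. Drd4, a D2-like dopamine receptor gene that photoreceptors express, was at 482, 468 and 526 CPM, and differed by less than 1.5-fold in all 3 comparisons. Adrb1, the metoprolol target, gave 17, 7 and 0 UMIs, where a count of 0 allows up to 2.37 CPM at 3 counts, whereas cones held 639, 407 and 475 CPM. Adra1a, Adra1b and Adra1d, the tamsulosin targets, and Drd2 had fewer than 20 UMIs in each rod library. The phosphodiesterase gene Pde10a, which breaks down both cyclic AMP and cyclic GMP, lies at chr17:8525187-8986648 and was at 23, 62 and 102 UMIs or 12.8, 72 and 80.7 CPM. Its log2 ratios over WT were 2.46 (1.78 to 3.25) and 2.61 (1.99 to 3.38), and 0.16 (-0.31 to 0.64) in rd10-TMB over rd10-vehicle, so the interval between the rd10 libraries included 0. Pde10a reached the count minimum over WT through the rd10 libraries, which fixes its direction there. Adcy6, an adenylate cyclase, was at 67.8, 39.5 and 62.5 CPM, with a log2 ratio of -0.75 (-1.37 to -0.22) in rd10-vehicle over WT and 0.64 (0.065 to 1.29) in rd10-TMB over rd10-vehicle, past the limit under 10 of 12 alternative settings for each. Of the 27 genes on the list of cyclic nucleotide signalling and TMB receptors, 9 were measured at the stricter rule in rd10-vehicle over WT, and Adcy6 was the 1 that was lower, against 5.2% of genes. In rd10-TMB over WT, 1 of 10 was higher, against 3.53%, and 2 were lower, against 4.91%. The higher one was Gnai2, an inhibitory G protein alpha subunit gene, at 16.7, 36 and 26.1 CPM. The lower ones were Gnaz, another inhibitory alpha subunit gene, at 115, 80.2 and 69.6 CPM, and Prkaca, which encodes the catalytic subunit of protein kinase A, at 27.3, 33.7 and 17.4 CPM. In rd10-TMB over rd10-vehicle, Adcy6 was the 1 of 10 that was higher, against 1.64%, and Prkaca, at a log2 ratio of -0.94 (95% interval -1.82 to -0.10), reached the minimum through rd10-vehicle only.

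Of 11 measured clock genes, 5 were lower in rd10-vehicle over WT (Per3, Tef, Hlf, Nr1d2 and Cry1), against 5.2% of genes at the stricter rule. Per3, a period gene, was at 62.8, 24.4 and 41.1 CPM. Cry1, its cryptochrome partner in repression, was at 45, 26.7 and 26.1 CPM. Nr1d2, a nuclear receptor of the second clock loop, was at 104, 54.6 and 64.1 CPM. In rd10-TMB over WT, 4 of 11 were lower, against 4.91% of genes, and in rd10-TMB over rd10-vehicle 2 of 10 were higher (Per3 and Tef), against 1.64%. In rods with no glia marker UMI this Per3 log2 ratio was -0.15, against 0.71 over all rods. The time of day at tissue collection is not given in the sources used here, and clock transcripts move with it. Rbm3 and Cirbp, cold-inducible RNA-binding protein genes, stayed within the limit, at 109, 115 and 157 CPM and 312, 376 and 337.

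Outside the lists, the 8 highest and 8 lowest ratios were ranked for each comparison among genes with at least 200 UMIs. The highest in rd10-vehicle over WT after Cebpd was Gnb3, a G protein beta subunit used by cones and ON bipolar cells, which lies at chr6:124834240-124840275. Its level was 82.3 (69.6 to 96.7) CPM in WT rods, 683 (629 to 741) CPM under vehicle and 325 (295 to 358) CPM under TMB and its log2 ratio 3.05 (95% interval 2.79 to 3.32) over WT and -1.07 (95% interval -1.26 to -0.89) in rd10-TMB over rd10-vehicle. Pmvk, an enzyme of the mevalonate pathway, was at 39.5, 235 and 113 CPM. Lrrc2, a leucine-rich repeat gene at chr9:110951545-110984066, was at 59.5, 326 and 164 CPM, with 2.45 (2.13 to 2.79) and -0.99 (-1.26 to -0.73). The long noncoding RNA 6430562O15Rik was at 35.6, 199 and 90.2 CPM. All 4 genes were above WT in both rd10 libraries and had lower values under TMB than under vehicle. Among the 8 lowest of rd10-TMB over rd10-vehicle, E2f6 and Myo10, a repressor of the E2F family and an unconventional myosin, showed the same order, at 22.8, 164 and 72 CPM for E2f6 and 38.4, 142 and 69.6 for Myo10. In that comparison E2f6, Myo10 and 6430562O15Rik reached 200 UMIs through rd10-vehicle, which fixes their direction. Krt18, an intermediate filament keratin gene, did not follow, as it was at 130.1, 501 and 551 CPM. With both libraries set to the lower CPM, Gnb3 would have had 219 UMIs in rd10-vehicle over WT and Krt18 346, while Cebpd, Pmvk, Lrrc2 and 6430562O15Rik would have had from 44 to 158, so they reached 200 UMIs through rd10, which fixes their direction over WT. Cd63 and Apoe, genes that Müller glia express strongly, were also among the 8, with Apoe at 72.9, 325 and 257 CPM against 18625, 24577 and 24466 CPM in Müller glia, and in rd10-vehicle over WT they too reached 200 UMIs through rd10.

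In the other direction, the lowest in both rd10 libraries over WT was Pcp4, a calmodulin-binding peptide gene of inner neurons, at 142, 41.8 and 42.7 CPM. Meg3 and Gria2, a neuronal noncoding RNA and an AMPA receptor subunit gene, were among the 8 lowest of rd10-TMB over WT. These 3 reached 200 UMIs through WT, which fixes their direction as well. The summed level of the amacrine markers in rods was 177, 33.7 and 35.6 CPM, so it was higher in WT rods alongside these genes, with up to 4 of the 8 markers at 0 in rd10, and its part in them was not tested. The 8 retinal ganglion cell markers summed to 40.6, 3.49 and 7.91 CPM in rods, with 6 at 0 in rd10-vehicle and 4 in rd10-TMB. Their part was not tested either. The highest in rd10-TMB over rd10-vehicle were Hist3h2a, a histone gene, at 209.7, 143 and 238 CPM, then Kcnv2, and then the ribosomal protein gene Rps26, at 329, 277 and 435. At this count minimum, 7 genes were higher (0.385%) and 22 lower (1.21%) of 1817 in that comparison.

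The same genes were set against cones, rod bipolar cells and Müller glia, the classes that touch rods or resemble them most. Edn2 was at 0, 12.5 and 3.68 CPM in cones, 0, 4.21 and 2.96 CPM in rod bipolar cells and 0, 6.13 and 3.58 CPM in Müller glia, where the WT zeros allow up to 2.11, 1.53 and 0.904 CPM at 3 counts. Rods held its highest level in each library. Lrrc2 was at 3.51, 19.1 and 14.3 CPM in cones and 2.41, 14.1 and 12.2 CPM in Müller glia, again below rods. Gnb3, by contrast, was at 3062, 3478 and 2666 CPM in cones and 1588, 2182 and 1946 CPM in rod bipolar cells. Rods were below those levels in every library. Cebpd was at 1404, 3359 and 2917 CPM in Müller glia, above rods, but in cones it was at 0, 47.6 and 22.1 CPM. Per 100 UMIs of the glia marker list, rods held 6.11, 54.4 and 27.8 Cebpd UMIs in WT, rd10-vehicle and rd10-TMB, while Müller glia held 3.24, 7.10 and 6.28. Cones held 0, 6.08 and 3.08, and rod bipolar cells 2.64, 6.26 and 6.42. This ratio can be high in any class with few glia marker UMIs, and the source of Cebpd in rods was not tested. For Edn2 the same ratios were 2.85, 16.6 and 6.05 in rods and 0, 0.0130 and 0.00770 in Müller glia.

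**Figure D4:**
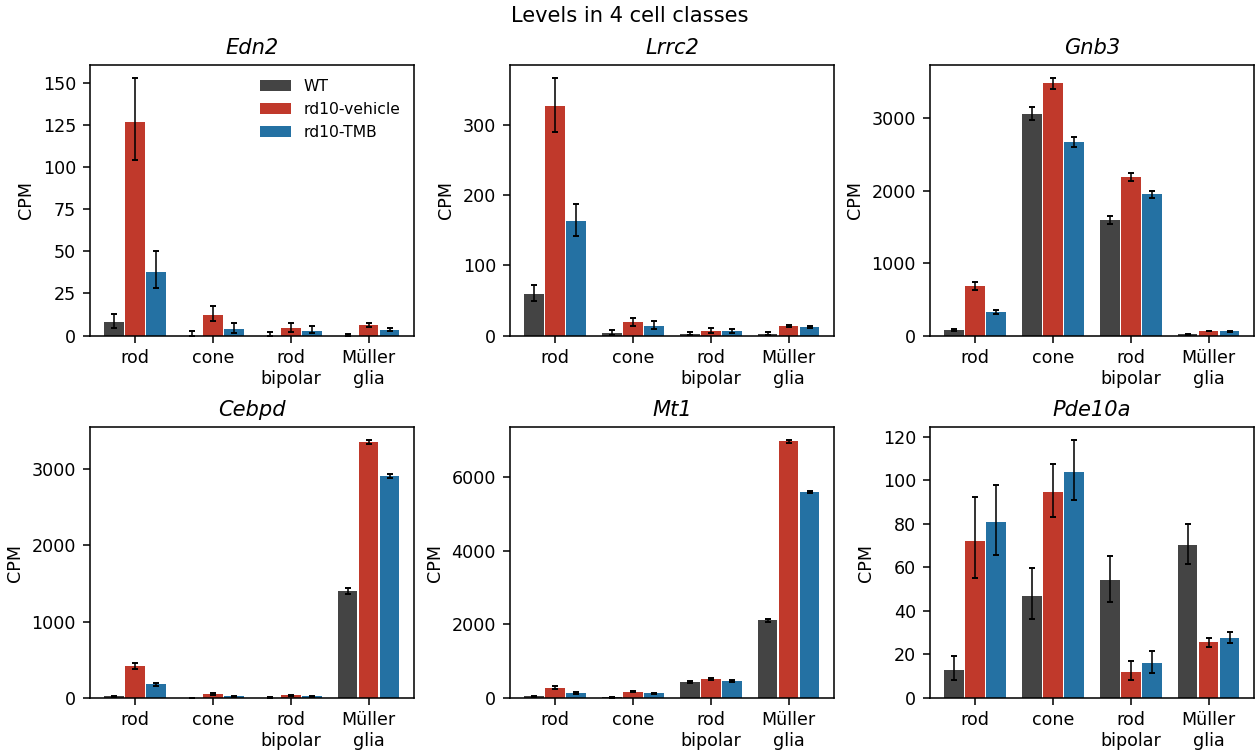
CPM (y axis, own scale per panel) of Edn2, Lrrc2, Gnb3, Cebpd, Mt1 and Pde10a in rods, cones, rod bipolar cells and Müller glia (x axis), with bars for WT, rd10-vehicle and rd10-TMB and exact 95% counting intervals. Edn2 and Lrrc2 are highest in rods, Gnb3 in cones, Cebpd and Mt1 in Müller glia, and Pde10a is above WT in rods and cones and below WT in rod bipolar cells and Müller glia.

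Shares of rods with a UMI of Cebpd, Edn2 and Gnb3 were compared at equal depth. Each cell was thinned to 1000 UMIs, which kept 954 WT, 488 rd10-vehicle and 666 rd10-TMB rods and left out 226, 68 and 80. Cebpd was seen in 0.943% (0.432 to 1.78%), 20.7% (17.2 to 24.6%) and 12.6% (10.2 to 15.4%). Without thinning these were 1.1%, 25.2% and 16.5%. Thinned cones held Cebpd in 0%, 5.08% and 1.76% and thinned rod bipolar cells in 0.998%, 3.04% and 1.74%. Without thinning the shares were 0%, 16.6% and 10.4% of cones and 1.48%, 9.88% and 7.73% of rod bipolar cells. Edn2 was seen in 0.524% (0.17 to 1.22%), 9.22% (6.81 to 12.1%) and 3.9% (2.57 to 5.67%), against 0% (0 to 0.916%), 0.415% (0.0857 to 1.21%) and 0% (0 to 0.58%) of rod bipolar cells, a class that should lack it, whose median depths were 5032, 3638 and 4310 UMIs. Both rd10 shares in rods were above those of rod bipolar cells, while the interval of the WT share (0.17 to 1.22%) is near them. Gnb3 was seen in 6.08% (4.65 to 7.79%), 41.4% (37 to 45.9%) and 22.4% (19.3 to 25.7%), against 1.9%, 4.6% and 4.11% of Müller glia, whose median depths were 6300, 8593.5 and 9454.5 UMIs. Without thinning, Gnb3 was seen in 9.75%, 51.4% and 31% of rods and in 9.25%, 26.7% and 23% of the deeper Müller glia. In WT the shares were thus apart at equal depth (0.914 to 3.46% in Müller glia) and close without thinning. Whether WT rods expressed Gnb3 was not tested. The abundant rod gene Gnat1 was seen in 95.8%, 97.1% and 97.9% of rods at the same depth.

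**Figure D5:**
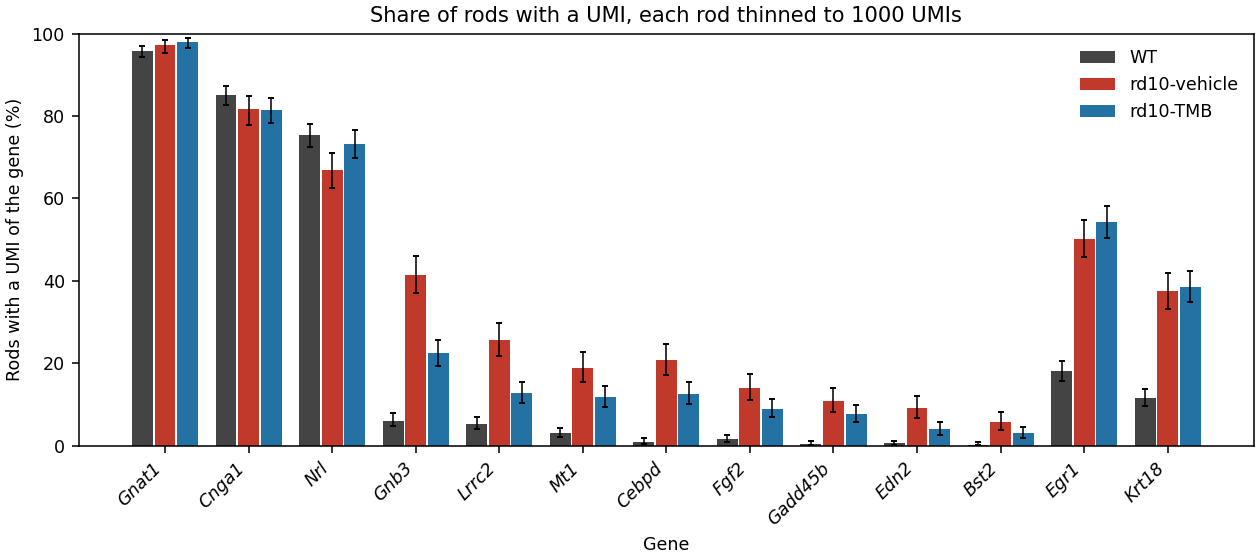
Percent of rods with a UMI (y axis) for 13 genes (x axis) after thinning each rod to 1000 UMIs, in WT, rd10-vehicle and rd10-TMB, with exact Clopper-Pearson 95% intervals. Gnat1, Cnga1 and Nrl are high in all 3 libraries, Gnb3, Lrrc2, Mt1, Cebpd, Fgf2, Gadd45b, Edn2 and Bst2 run from WT up to rd10-vehicle with rd10-TMB between, and for Egr1 and Krt18 the rd10-TMB bars are at or above the rd10-vehicle bars.

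Gnb3 and Gadd45b were seen more often in rd10-vehicle rods that also held Cebpd. Among thinned rd10-vehicle rods, 101 had a Cebpd UMI and 387 did not. Gnb3 was seen in 56.4% (95% interval 46.2 to 66.3%) of those with Cebpd and in 37.5% (32.6 to 42.5%) of those without. Gadd45b was seen in 24.8% (16.7 to 34.3%) and 7.24% (4.86 to 10.3%). The rod factor genes had lower shares with Cebpd, as Nr2e3 was seen in 56.4% (46.2 to 66.3%) with Cebpd and 69.5% (64.7 to 74.1%) without, and Nrl in 59.4% (49.2 to 69.1%) and 68.7% (63.9 to 73.3%), with intervals that overlap for each gene. The median count of phototransduction UMIs was 59 per thinned rod with Cebpd and 70 without. Apoe, a glia gene, was seen in 23.8% (15.9 to 33.3%) and 25.3% (21.1 to 30.0%), intervals that overlap. Mt1 was seen in 14.9% (8.56 to 23.3%) and 19.9% (16 to 24.2%), which also overlap. In rd10-TMB, 84 rods with and 582 without Cebpd had Gnb3 in 38.1% and 20.1%, and Gadd45b in 11.9% (5.86 to 20.8%) and 7.04% (5.10 to 9.44%), intervals that overlap. In WT only 9 thinned rods had Cebpd. Cells of 1 library are not replicates, so these shares describe the library. In rods without any glia marker UMI the log2 ratios in rd10-vehicle over WT were 4.75 for Cebpd, 4.08 for Edn2, 2.93 for Gnb3, 3.25 for Fgf2 and 4.11 for Gadd45b, and in rd10-TMB over rd10-vehicle they were -1.26, -1.32, -1.11, -0.99 and -0.76 in the same order. All were on the same side as in the full set, where the second comparison gave -1.72 for Edn2 and -0.64 for Fgf2.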

How the data were processed

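Single-cell transcripts of pooled retinas were measured in 3 libraries, 1 per group, and the group of each cell was taken from the library name in the cell table. The submitters' processing notes name Cell Ranger 6.0.1, Seurat 3.2.2 and mm10. Per the study's methods, the authors dropped doublets found by Scrublet and cells under 500 detected genes, and clustered after Harmony correction for library. The deposited matrix holds natural log values that the authors made by scaling every cell to 10000 UMIs and adding 1, and the deposited cell table holds each cell's total UMI count.

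Here the 32620606 matrix entries were converted to UMI counts using those totals, and 100% were whole within 0.001 UMI. The sums equalled the deposited totals in 15242 of 15242 cells. Rods were the cells of the authors' cluster 1. Cones, rod bipolar cells and Müller glia were their clusters 4, 2 and 0, with names that follow marker genes. For every class in every library, UMIs were added up and expressed as CPM. No cell was filtered further, no doublet caller was run and no column of per-cell values was left unmapped. The authors' MAST tests were not used.

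Cells are not replicates, so no p-value was computed. A pseudocount of 1 UMI was added to both libraries in log2 ratios but not in their intervals. Intervals are exact Poisson for sums, exact Clopper-Pearson for shares and exact conditional for ratios, at 95%, and cover counting error only. Genes needed at least 50 UMIs over the pair of libraries and passed at 1.5-fold. At the stricter rule, a gene needed 50 UMIs over the pair with both libraries set to the lower CPM.

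Genes were named if on a list with 20 or more UMIs in rods over the 3 libraries, or if among the 8 highest or 8 lowest ratios of each comparison among genes with at least 200 UMIs, leaving out Xist, Tsix and the Y-linked genes Ddx3y, Eif2s3y, Kdm5d and Uty. Listed genes under 20 UMIs and Malat1 were named after their values were seen. The rods, the 17 gene lists and the alternatives were chosen with earlier results of these data known. Results for 2 listed genes are not reported here. The ratio script was tested on simulated counts. Alternatives were another scaling, other totals, the mean over cells, pseudocount, filters on cells, thinning to 1000 UMIs, count minimums, the fold limit and, chosen after seeing the data, rods with no Müller glia marker UMI. Coordinates and promoter windows are from RefSeq. Software was Python 3.11.15 with numpy 2.4.6, scipy 1.17.1, pandas 2.3.3 and matplotlib 3.10.9.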

Additional observations from a re-analysis of the deposited data

Results flagged for a closer look

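For 6 named values, a ratio in another cell class passed 1.5-fold in the direction opposite to rods, and these differences were not tested. Pde10a had a log2 ratio of 2.46 in rods in rd10-vehicle over WT, against -2.15 in rod bipolar cells and -1.47 in Müller glia. In rd10-TMB over WT it was 2.61 in rods, against -1.74 and -1.37. The Pde10a levels behind these were 53.9, 11.9 and 15.9 CPM in rod bipolar cells and 70.5, 25.5 and 27.4 CPM in Müller glia, and cones were at 47, 94.7 and 104 CPM, on the same side as rods. In rods Pde10a reached the count minimum over WT through the rd10 libraries, which fixes its direction there. The immediate-early gene Nr4a1 had a log2 ratio of 1.70 in rods in rd10-TMB over WT and -0.70 in rod bipolar cells. The clock gene Per1 had a log2 ratio of 0.70 in rods in rd10-TMB over rd10-vehicle and -0.80 in rod bipolar cells, but in rods it reached the count minimum through rd10-TMB, which fixes its direction there. Groups of 1 library allowed no check for an outlying sample.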

How the results depend on the processing

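No paired analysis was possible because each group was 1 library, so the groups share no more than 1 replicate number and no test was made. For the same reason no replicate could be left out. The share of cells that were rods was 29.9%, 16.1% and 24.3% with Müller glia left out of the total, 9.44%, 2.39% and 5.28% with cells of at least 1000 genes, and 29.6% in WT with a mitochondrial share of 10% or less, against 26.4%, 9.34% and 15.5% over all cells. Genes past the limit, higher and lower, were 755 and 1107 in rd10-vehicle over WT, 600 and 1075 in rd10-TMB over WT and 510 and 649 in rd10-TMB over rd10-vehicle at a minimum of 20 UMIs. At 200 UMIs they were 90 and 80, 74 and 54, and 7 and 22, and at a 2-fold limit 123 and 124, 83 and 86, and 14 and 26. The lower genes were 198 and 187 over WT with cells of at least 1000 genes, 365, 312 and 147 with cells thinned to 1000 UMIs, and 126 in rd10-TMB over rd10-vehicle in rods with no glia marker UMI. A stricter minimum compares fewer genes; other causes were not tested.

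List medians moved as well. The activation genes were at -0.10 in rd10-vehicle over WT in rods with no glia marker UMI, against -0.18. Cytokine genes were at 2.81 in rd10-vehicle over WT at 200 UMIs, against 1.76. In rd10-TMB over WT they were at 2.14 with cells of at least 1000 genes, 1.59 when thinned, 1.45 at 20 UMIs and 1.99 at 200 UMIs, against 0.80. These medians include genes that reached the minimum through rd10 only, which fixes their direction. At the stricter rule the medians were 1.02 over 3 genes in rd10-vehicle over WT and 0.63 over 5 genes in rd10-TMB over WT. Protective signals turned to -0.57 and -0.30 over WT at 200 UMIs, against 3.67 and 2.49, where Igf1r alone remained. Igf1r was also the only gene of that list measured over WT at the stricter rule. Immediate-early genes were at 1.96 and 1.6 over WT with cells of at least 1000 genes, against 1.49 and 1.21. Of single genes, Prdm1 turned to 0.077 in rd10-vehicle over WT with cells of at least 1000 genes, Cplx3 to 0.067 in rd10-TMB over WT and Per3 to -0.15 in rd10-TMB over rd10-vehicle in rods with no glia marker UMI. Among the gene ratios past 1.5-fold, 1713 of 1716 values under the alternatives kept their sign, but a call was lost more often. Of 143 such ratios, 87 were past the limit under all 12 alternatives. Slc1a7 in rd10-vehicle over WT was past it under 5 and Cplx3 in rd10-TMB over WT under 6. Prdx3, Cebpg and Per3 were past it under 7 in rd10-TMB over WT, and Bcl2, Prkaca and Dusp1 under 8. Past it under 9 were, among others, Crx, Cacna1f, Rgs9bp and Cplx3 in rd10-vehicle over WT, and Kcnv2, Tef and Per3 in rd10-TMB over rd10-vehicle. Pooled mice, 1 library per group, sex mixed in WT and shallow rods limit what can be read from these data.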
